A study of Homo sapiens with 12 samples.

Results

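PNRC1, PDK4 and OTUD1 were followed in RNA-seq of the HUDEP-2 line, human erythroid precursors immortalised from umbilical cord blood, before and after stimulation of the Kit receptor. The 3 genes are the rows of the count table with these symbols, of 54628 genes listed, and they were chosen by their fall in CPM after SCF (stem cell factor, which binds and activates Kit), which was among the largest of all genes. The fall in the SCF groups against the PBS groups is therefore a description of how they were chosen, and it is given without a test. The comparisons between the guides, the difference between the SCF responses and the replicate number were not used in that choice and were tested.

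The study compared SCF with vehicle in cells whose EGR1 expression was lowered by CRISPR interference, and 12 libraries fell into 4 groups of 3 replicates each. The groups were sgControl PBS, sgControl SCF, sgEGR1 PBS and sgEGR1 SCF, where sgControl is a scrambled guide and sgEGR1 directs the KRAB-dCas9 repressor to an element upstream of EGR1. Cells of all 4 groups were grown with SCF, erythropoietin, dexamethasone and doxycycline, carried lentiviral constructs and were sorted for GFP. They were then starved for 5 h and given PBS alone or SCF at 50 ng/mL for 1 h, so the PBS groups are starved cells and not cells in steady growth. One line and one guide per target were used. The labels do not say whether replicates were separate cultures, whereas the study's methods call them biological replicates, and p-values measure only the spread between these libraries.

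PNRC1 is a small proline-rich nuclear protein that binds nuclear receptors and the mRNA decapping machinery. PDK4 is a mitochondrial kinase that phosphorylates and inhibits the pyruvate dehydrogenase complex, which limits the entry of pyruvate into the citric acid cycle, and its transcript is a classic target of FOXO factors and of glucocorticoids in fasted tissues. OTUD1 is a deubiquitinase of the OTU family, which removes ubiquitin chains from target proteins. Kit passes the SCF signal to the PI3K-AKT and RAS-ERK pathways, and AKT keeps FOXO factors out of the nucleus.

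The promoters are shown because the 3 genes were chosen for a shared fall after SCF and because FOXO, EGR1 and AP-1 are the factors most often tied to starvation and to Kit signalling. PNRC1 (ENSG00000146278) lies on the plus strand at chr6:89080751-89085160, PDK4 (ENSG00000004799) on the minus strand at chr7:95583499-95596516 and OTUD1 (ENSG00000165312) on the plus strand at chr10:23439075-23442377. The 250 bases before each annotated start are given below from RefSeq (GRCh38.p14), 5′ to 3′ on the strand of the gene, and span chr6:89080501-89080750 for PNRC1, chr7:95596517-95596766 for PDK4 and chr10:23438825-23439074 for OTUD1. Capitals mark matches to any of the 8 motifs searched, and the last base of each sequence is the base before the start.
PNRC1: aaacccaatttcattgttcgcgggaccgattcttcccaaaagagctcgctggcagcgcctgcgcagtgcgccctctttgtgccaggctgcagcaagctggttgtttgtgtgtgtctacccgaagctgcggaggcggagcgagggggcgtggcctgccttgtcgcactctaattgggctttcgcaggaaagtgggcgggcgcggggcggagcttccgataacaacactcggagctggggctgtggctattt
PDK4: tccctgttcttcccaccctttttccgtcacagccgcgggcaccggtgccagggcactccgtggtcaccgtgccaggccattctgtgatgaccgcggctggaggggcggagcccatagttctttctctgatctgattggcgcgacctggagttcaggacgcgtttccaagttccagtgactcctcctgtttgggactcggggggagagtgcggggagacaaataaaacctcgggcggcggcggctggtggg
OTUD1: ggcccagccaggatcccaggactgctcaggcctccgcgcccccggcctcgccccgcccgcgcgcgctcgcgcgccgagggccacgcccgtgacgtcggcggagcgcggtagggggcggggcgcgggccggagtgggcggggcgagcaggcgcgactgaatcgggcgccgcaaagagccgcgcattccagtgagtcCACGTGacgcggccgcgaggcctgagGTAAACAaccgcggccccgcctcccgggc

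OTUD1 was the sole gene of the 3 with a match. Its promoter held the letters GTAAACA, which is the FOXO motif TGTTTAC read on the minus strand, at 29 to 23 bases before the start, and the E-box CACGTG at 55 to 50 bases before the start. Among the promoters of 10992 tested genes, searched over the same 250 bases and both strands, 1.80% held the FOXO letters and 8.94% the E-box. The PNRC1 and PDK4 windows held neither. All 3 windows lacked the remaining motifs searched. These were the EGR motif GCGTGGG, present in 8.75% of the tested promoters, and the AP-1 motif TGANTCA, present in 3.76% of them. The ETS motif CCGGAAG was present in 16.4% of all tested promoters and the GATA motif, spelled AGATAA, was found in 4.65%. The CRE motif, with the letters TGACGTCA, was found in 2.87% of tested promoters, and the glucocorticoid response element was found in 0%. The motifs do not contain one another. A match is a stretch of letters and not a measured binding site, and the absence of one covers this window only. GC content was 60.8% for PNRC1, 62.8% for PDK4 and 78.8% for OTUD1 against a median of 64.8%, and the OTUD1 window ranked at percentile 93.6.

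Library totals ranged from 23.5 to 32.04 megacounts, and those of the SCF groups were larger on average than those of the PBS groups. Expression is given as CPM, that is as counts per megacount after TMM scaling, and edgeR tested 15492 genes at a Benjamini-Hochberg adjusted p under 0.05. EGR1, the gene that checks the guide, averaged 8.10 ± 2.51 CPM (SD, n = 3) in sgControl PBS and 206 ± 34.0 CPM in sgControl SCF, against 1.38 ± 0.580 CPM in sgEGR1 PBS. After SCF it stood at 40.4, 57.4 and 203.6 CPM in sgEGR1 replicates 1 to 3, so the library labelled sgEGR1 SCF replicate 3 held EGR1 at the sgControl level and goes against its label. Replicate 1 of every group stood apart from the others, with FOS 4.11- to 10.6-fold above the mean of replicates 2 and 3. All 10 erythroid markers were tested and 0 were called in any comparison between groups. Over all genes, 2.89% and 2.59% were called for SCF in sgControl and sgEGR1 cells, and 0% between guides. The erythroid markers had a summed level of 21382 to 24866 CPM, whereas lymphoid, myeloid and fibroblast and endothelial markers summed to at most 0.597, 0.719 and 0.409 CPM. Megakaryocytic markers summed to 12.9 to 35.6 CPM, nearly all of it ITGA2B (group means 18.9 to 24.1 CPM), and 3 of the 5 had 0 counts in every library. In bulk RNA, fewer cells of a type and less RNA per cell cannot be told apart.

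PNRC1 was the most abundant of the 3 per kilobase of transcript, at 43.9 CPM per kilobase in sgControl PBS, and after 1 h of SCF 37.9% of its PBS level remained in sgControl cells. In sgControl cells after PBS it stood at 94.0, 90.1 and 91.6 CPM in replicates 1, 2 and 3, and after SCF at 38.0, 35.6 and 30.9 CPM. In sgEGR1 cells it stood at 100.4, 86.0 and 87.5 CPM after PBS and at 39.6, 33.8 and 33.1 CPM after SCF. Every PBS library lay above every SCF library, with the lowest PBS value 2.37-fold above the highest SCF value in sgControl cells and 2.17-fold in sgEGR1 cells. The group means were 91.9 ± 1.96 and 34.8 ± 3.63 CPM in sgControl cells and 91.3 ± 7.95 and 35.5 ± 3.56 CPM in sgEGR1 cells (SD, n = 3). The fitted log2 fold change of SCF against PBS was -1.40 (SE 0.0895) in sgControl cells and -1.36 (SE 0.0895) in sgEGR1 cells, where 38.9% of the PBS level remained. These values rest on 976 to 2602 counts per library, for which counting error alone is 1.96% to 3.20%.

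PDK4 was the scarcest, at 1.13 CPM per kilobase of transcript in sgControl PBS, and 41.6% of its PBS level remained after SCF in sgControl cells. Its levels in sgControl cells were 4.84, 3.58 and 3.80 CPM after PBS and 1.44, 1.70 and 1.95 CPM after SCF for replicates 1, 2 and 3. In sgEGR1 cells they were 4.94, 4.73 and 4.88 CPM after PBS and 1.59, 1.70 and 1.87 CPM after SCF. The PBS and SCF libraries did not overlap in either genotype, and replicate 1 was the highest library of both PBS groups and the lowest of both SCF groups. Means were 4.08 ± 0.672 and 1.70 ± 0.255 CPM in sgControl cells and 4.85 ± 0.108 and 1.72 ± 0.144 CPM in sgEGR1 cells (SD, n = 3). The log2 fold change was -1.26 (SE 0.165) in sgControl cells and -1.49 (SE 0.165) in sgEGR1 cells, which for sgEGR1 cells leaves 35.5% of the PBS level. With 46 to 140 counts per library, counting error alone is 8.45% to 14.7%, and the spread between replicates (coefficient of variation 2.22% to 16.5%) was of that order.

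OTUD1 lay between the other two, at 2.97 CPM per kilobase of transcript in sgControl PBS. In sgControl cells it stood at 9.32, 10.67 and 9.43 CPM after PBS and at 4.78, 4.20 and 4.65 CPM after SCF. In sgEGR1 cells it stood at 12.43, 8.83 and 11.41 CPM after PBS and at 4.45, 4.13 and 4.28 CPM after SCF. The PBS libraries were again all above the SCF libraries, and the sgEGR1 PBS group had the widest spread, with replicate 2 below every sgControl PBS library and replicates 1 and 3 above all of them. Means were 9.81 ± 0.752 and 4.55 ± 0.307 CPM in sgControl cells and 10.9 ± 1.86 and 4.29 ± 0.163 CPM in sgEGR1 cells (SD, n = 3). The log2 fold change was -1.11 (SE 0.131) and -1.34 (SE 0.132), or 46.4% and 39.4% of the PBS level, on 119 to 327 counts per library. Before any scaling, the counts of each of the 3 genes were also lower in every SCF library than in every PBS library, although the SCF libraries were the deeper ones on average.

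**Figure D1:**
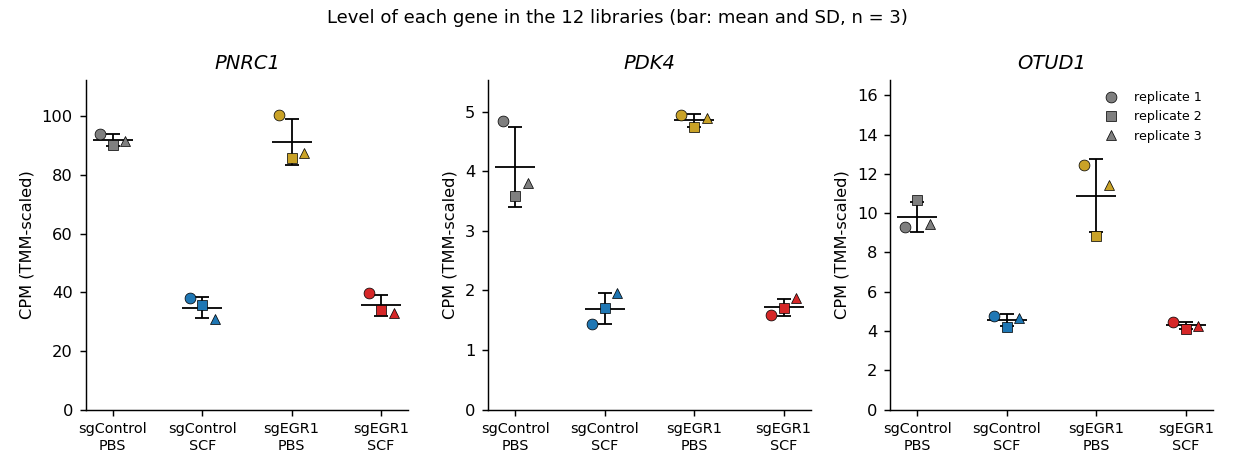
Each panel plots 1 gene, with TMM-scaled CPM on a linear axis from 0 and the 4 groups along the bottom. Points are the 3 libraries of a group, and bars are the mean and SD; the PBS and SCF libraries do not overlap in any panel, whereas the sgControl and sgEGR1 libraries overlap within each treatment.

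Among all 15492 genes tested, 9.24% had their 3 SCF libraries below their 3 PBS libraries in sgControl cells, 10% did in sgEGR1 cells, and 2.47% had all 6 SCF libraries below all 6 PBS libraries, as each of the 3 genes did. The quasi-likelihood test called 448 genes in sgControl cells (2.89%), of which 120 were lower (0.775%) and 328 higher (2.12%), and 402 in sgEGR1 cells (2.59%), of which 122 were lower (0.788%) and 280 higher (1.81%). Since the choice of the 3 genes used these contrasts, nothing is read from their place among the calls. By the rule of largest fall among called genes with at least 2 CPM and no overlap between groups, PNRC1 and PDK4 followed FGF14 (log2 fold change -1.49) at places 2 and 3 in sgControl cells, and OTUD1 was at place 6, after ZNF436-AS1 (-1.25) and ARRDC3 (-1.19) and just ahead of CCNG2 (-1.09). In sgEGR1 cells PDK4, PNRC1 and OTUD1 held the first 3 places, and the next genes were ARRDC3 (-1.18) and COX6B1P5 (-1.11). Of 64 genes called lower in both genotypes, the 3 took places 2 to 4 by mean log2 fold change, behind LOC105375001 (-1.54). Among all genes tested, without these filters, PNRC1, PDK4 and OTUD1 ranked 88, 115 and 164 by lowest log2 fold change in sgControl cells. In sgEGR1 cells they ranked 107, 87 and 112.

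The size of a fall within 1 h can be restated as a half-life if the PBS level is taken as the level when SCF was added. PBS and SCF libraries were both taken after 1 h, and no library was taken when SCF was added. If no transcript had been made during the 60 min and decay had been first order, the fitted fall corresponds to a half-life of 42.8 min for PNRC1 in sgControl cells (95% interval 37.6 to 49.8 min) and 44.1 min in sgEGR1 cells (38.6 to 51.5 min). For PDK4 the values were 47.5 min (36.9 to 66.4 min) and 40.2 min (32.4 to 53.0 min), and for OTUD1 54.2 min (43.1 to 73.0 min) and 44.6 min (36.8 to 56.8 min). The intervals of the 3 genes overlapped in each genotype, so no order among them is given. The genes were chosen by this fall, and the intervals do not allow for that choice, which favours large falls and thus short half-lives. If the PBS level stayed constant over the 60 min, any synthesis or lag after SCF would call for a half-life shorter than these values. A level still changing in PBS cells would shift these values, and such a change was not measured. With 1 time point and no measurement of synthesis, a stop of transcription and a faster decay cannot be told apart. CPM is relative to the library total, so a change in total RNA per cell was not measured.

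The guide differences of the 3 genes did not pass the test under either treatment. The target of the guide, EGR1, did not pass either, with a log2 difference of -2.59 after PBS (edgeR p 0.00721, adjusted p 0.999) and -1.03 after SCF (p 0.0406, adjusted p 1.00), so a missing call says little here and the intervals carry the result. After PBS the log2 difference of sgEGR1 against sgControl was -0.01 for PNRC1 (SE 0.0866, 95% interval -0.20 to 0.18, edgeR adjusted p 0.999). It was 0.25 for PDK4 (SE 0.158, -0.09 to 0.59, adjusted p 0.999) and 0.15 for OTUD1 (SE 0.127, -0.13 to 0.43, adjusted p 0.999). The 95% intervals thus reach up to 1.51-fold higher in sgEGR1 cells for PDK4, and from 0.871- to 1.13-fold for PNRC1. With the replicate number as a block, the PNRC1 difference was -0.01 (SE 0.0524, edgeR adjusted p 0.960). In this comparison edgeR called 0 genes (0%), while 715 had an unadjusted p under 0.05 (4.62%) and DESeq2 made 20 calls. For PDK4 the unadjusted p was 0.139, and the sgControl and sgEGR1 libraries overlapped by replicate 1 of sgControl. The PDK4 difference with the replicate number as a block was 0.25 (SE 0.156, edgeR adjusted p 0.624). Leaving out 1 library moved PDK4 between 0.16 and 0.39 and OTUD1 between 0.04 and 0.28, and from replicates 2 and 3 only OTUD1 stood at 0.0067.

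After SCF the guide difference was 0.03 for PNRC1 (95% interval -0.17 to 0.23), 0.02 for PDK4 (-0.35 to 0.39) and -0.09 for OTUD1 (-0.38 to 0.21), each with an edgeR adjusted p that rounds to 1. There were 0 calls by edgeR over all genes (0%) and 5 by DESeq2, while 361 genes had an unadjusted p under 0.05 (2.33%). With the replicate block the OTUD1 difference was -0.08 (SE 0.129, edgeR adjusted p 0.972). With sgEGR1 SCF replicate 3 left out, whose EGR1 level goes against its label, the differences were 0.07, -0.05 and -0.09 for PNRC1, PDK4 and OTUD1, with an adjusted p of 1 for each. In sgEGR1 SCF replicates 1 and 2, where EGR1 stood at 40.4 and 57.4 CPM against a mean of 206 CPM in sgControl SCF, PNRC1 was at 39.6 and 33.8 CPM against a mean of 34.8 CPM.

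The fall after SCF did not differ detectably between the genotypes. The interaction subtracts the log2 response of sgControl cells from that of sgEGR1 cells, and it was 0.04 for PNRC1 (SE 0.125, 95% interval -0.23 to 0.31). For PDK4 it was -0.23 (SE 0.232, -0.73 to 0.28) and for OTUD1 -0.24 (SE 0.184, -0.64 to 0.17), with unadjusted p of 0.759, 0.344 and 0.224 by edgeR and an adjusted p of 1 for each. The interaction gave 0 calls by edgeR over all genes (0%) and 4 by DESeq2, while 306 genes had an unadjusted p under 0.05 (1.98%). The point estimates of PDK4 and OTUD1 correspond to a response 0.853- and 0.849-fold that of sgControl cells, and their intervals reach to 0.601- and 0.643-fold, so a larger fall of that size in sgEGR1 cells could not be seen with 3 replicates. Leaving out 1 library moved the interaction between -0.37 and -0.11 for PDK4 and between -0.37 and -0.13 for OTUD1, and replicates 2 and 3 only gave -0.41 and -0.09.

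PNRC1 was the one of the 3 called for the replicate number. It was 1.13-fold higher in replicate 1 than in replicates 2 and 3 (log2 difference 0.17, SE 0.0401, edgeR adjusted p 0.00696), and replicate 1 was the highest library in 4 of 4 groups. Genes called in this comparison made up 26.6% of those tested, 13.1% higher and 13.4% lower in replicate 1, so the call places PNRC1 among many. PDK4 (0.01, adjusted p 0.957) and OTUD1 (0.10, adjusted p 0.479) did not pass. The labels do not say what sets replicate 1 apart. From replicates 2 and 3 alone, the log2 response of PNRC1 was -1.45 in sgControl cells and -1.37 in sgEGR1 cells, that of PDK4 was -1.01 and -1.43, and that of OTUD1 was -1.18 and -1.27.

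**Figure D2:**
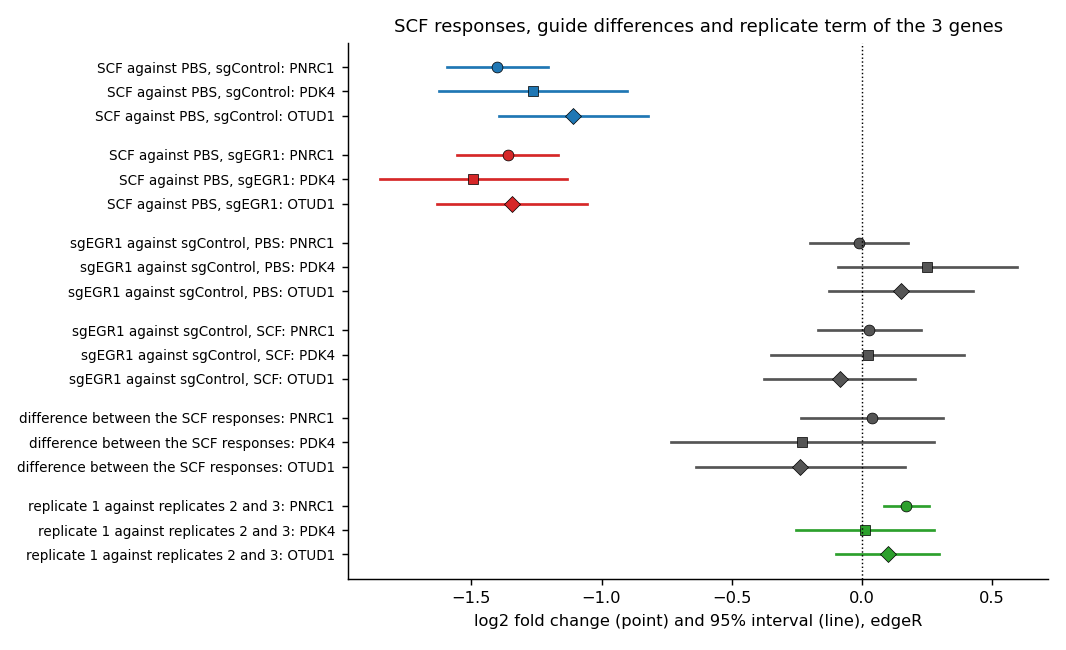
Points are log2 fold changes and lines are 95% intervals of the edgeR model over all 12 libraries. The SCF responses, which chose the genes, lie between -1.49 and -1.11, all guide differences and interactions cross 0, and PNRC1 alone lies away from 0 for replicate 1.

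Across the 12 libraries the 3 genes ran together. Pearson's r of log2 CPM was 0.975 for PNRC1 with OTUD1, 0.952 for PDK4 with OTUD1 and 0.949 for PNRC1 with PDK4 (Spearman's rho 0.825, 0.790 and 0.692). All 12 points share the contrast of 6 PBS with 6 SCF libraries that chose the genes. After the group means were taken out, r was 0.376, -0.173 and -0.439 for the same pairs. The genes of most similar profile among 11176 compared were CCNG2 (r 0.977), ZKSCAN8 (0.974) and GPR146 (0.972) for PNRC1, BRD8 (0.982), EZH1 (0.976) and CCNG2 (0.975) for PDK4, and GPR146 (0.966), CCNG2 (0.962) and CDKN1B (0.961) for OTUD1. CCNG2 encodes an unconventional cyclin linked to cell cycle arrest, and it was the one gene on all 3 lists. These r values also rest on the contrast that chose the members. After the group means were taken out, r of CCNG2 was 0.288 with PNRC1, 0.475 with PDK4 and 0.197 with OTUD1. The others then ranged from 0.0598 (ZKSCAN8 with PNRC1) to 0.786 (EZH1 with PDK4). Likeness of profile is not likeness of size: the log2 fold change of BRD8 was -0.28 and -0.35 in sgControl and sgEGR1 cells, and that of ZKSCAN8 was -0.41 in both.

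The relatives of PDK4 were next examined, since the activity of pyruvate dehydrogenase is set by PDK kinases and PDP phosphatases. Apart from PDK4, 1 of 13 tested genes for pyruvate dehydrogenase and its control was called higher in each genotype and 0 lower, beside 2.12% of all genes called higher in sgControl and 1.81% in sgEGR1 cells. The list had a median log2 fold change of 0.0003 in sgControl and 0.009 in sgEGR1 cells against -0.006 and -0.0005 over all genes. The call was PDP1, which encodes a phosphatase that reactivates the complex and rose by 0.34 (SE 0.0730, edgeR adjusted p 0.0303) with sgControl and by 0.35 (adjusted p 0.0264) with sgEGR1. PDP2, the other phosphatase, had values of 0.33 and 0.32 that did not pass (adjusted p 0.0930 and 0.111). The sister kinases PDK1, PDK2 and PDK3 stood at 22.4, 86.5 and 24.8 CPM in sgControl PBS. Their log2 fold changes in sgControl cells were -0.20, -0.03 and 0.0003, with adjusted p of 0.498, 0.960 and 1.00. In sgEGR1 cells they were 0.005, 0.007 and 0.09, and none passed.

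PNRC1 shares its family with PNRC2, which links UPF1 to the mRNA decapping machinery in nonsense-mediated decay. Of 13 tested decapping and partner genes without PNRC1, 0 were called higher in either genotype, and 1 was called lower in sgControl and 2 in sgEGR1 cells, beside 0.775% and 0.788% of all genes called lower and 2.12% and 1.81% called higher. PNRC2 went from 151 to 131 CPM in sgControl cells, or -0.20 on the log2 scale with an edgeR adjusted p of 0.0169 (SE 0.0383), and its value in sgEGR1 cells was -0.13 (adjusted p 0.0992). XRN1, the cytoplasmic 5′ to 3′ exonuclease, fell by 0.26 in sgEGR1 cells (adjusted p 0.0373; -0.16 and 0.221 in sgControl), and UPF1, the nonsense-mediated decay helicase, fell by 0.24 (adjusted p 0.0235; -0.20 and 0.0536 in sgControl). LSM14A, a decapping cofactor, was listed at a mean of at most 0.695 CPM in any group, and its log2 fold changes of 0.75 and 1.71 did not pass (adjusted p 0.811 and 0.438). None of these differences between genotypes passed the interaction test, which called 0 of all 15492 genes tested.

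Of the OTU deubiquitinases, 12 of 15 were tested. Among the 11 without OTUD1, 2 were called higher in each genotype and 0 lower, beside 2.12% and 1.81% of all genes called higher and 0.775% and 0.788% called lower. VCPIP1, chosen after its values were seen, had values of -0.13 and -0.18 that did not pass (adjusted p 0.172 and 0.0579). OTUD4 rose by 0.46 (edgeR adjusted p 0.00430) with sgControl and by 0.39 (adjusted p 0.0123) with sgEGR1. TNFAIP3, the NF-kappaB feedback inhibitor A20, rose by 0.73 (adjusted p 0.00265) and 0.79 (adjusted p 0.00141). OTUD6A, OTUD7A and OTUB2 did not pass the filter on low counts.

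**Figure D3:**
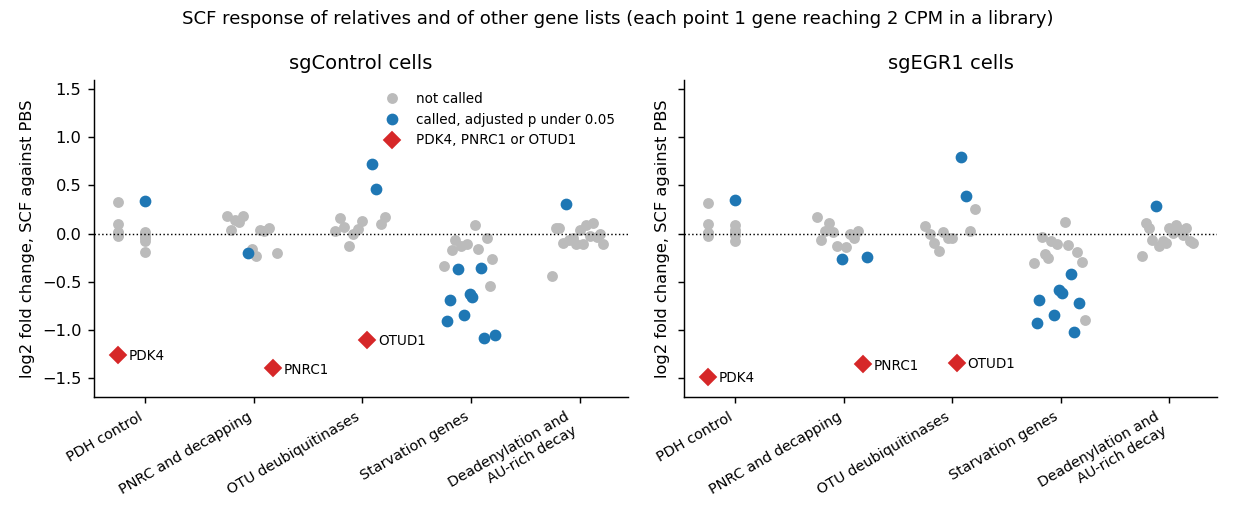
Each point is 1 tested gene that reached 2 CPM in a library, with its log2 fold change of SCF against PBS on the vertical axis and its list along the bottom, in sgControl cells on the left and sgEGR1 cells on the right. PDK4, PNRC1 and OTUD1 (diamonds) were chosen by this fall, so their place below the other genes of their family lists follows from the choice. Called members of those family lists (blue) range from -0.26 to 0.79. The lowest called starvation gene is CCNG2 at -1.09, on a list drawn up with earlier results of these data known.

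Genes known to rise in starved or quiescent cells, many of them FOXO targets, formed a further list. Of 20 tested, 9 were called lower and 0 higher in sgControl cells, and 8 were called lower and 0 higher in sgEGR1 cells, beside 0.775% and 0.788% of all genes called lower. The median log2 fold change was -0.35 and -0.30, and 18 of 20 were below 0 in each genotype. The other 11 in sgControl and 12 in sgEGR1 cells were not called, and the genes named next were picked from the called ones. The values of CCNG2 were -1.09 (SE 0.0903, edgeR adjusted p 9.33e-05) with sgControl and -1.03 (adjusted p 0.000117) with sgEGR1. PIK3IP1, an inhibitor of PI3K, had values of -0.91 in sgControl and -0.93 in sgEGR1 cells, and BCL6, a transcriptional repressor, had -0.84 in both. CDKN1B, the cell cycle inhibitor p27, had -0.69 in both, and TXNIP, which restrains glucose uptake, had -0.66 and -0.62. These 4 genes passed the test in both genotypes, with an edgeR adjusted p of at most 0.0129. IRS2, an adaptor of the insulin receptor, fell by 1.05 in sgControl cells (adjusted p 0.0312) and stood at -0.90 in sgEGR1 cells (adjusted p 0.0616). The list was drawn up with earlier results of these data known, and its direction is not independent evidence. In the opposite direction, 10 of 15 tested immediate early genes were called higher and 0 lower in each genotype, beside 2.12% and 1.81% of all genes called higher. Guide differences and interactions gave 0 calls over all 15492 genes tested (0%), and therefore 0 in every list, which says nothing about the lists.

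Of 16 tested decay factors that act on AU-rich or deadenylated transcripts, 1 was called higher in each genotype and 0 lower, beside 2.12% and 1.81% of all genes called higher. The medians were -0.03 and -0.005 on the log2 scale. The call was TOB2, which links RNA-binding proteins to deadenylases and rose by 0.31 (edgeR adjusted p 0.0132) in sgControl cells and 0.29 (adjusted p 0.0194) in sgEGR1 cells. BTG1, of the same protein family, had values of -0.44 and -0.24 that did not pass (adjusted p 0.146 and 0.487).

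The transcripts of the 3 genes differed in build. In GENCODE release 44, PNRC1 has 2 exons over 4410 bases and OTUD1 has 1 exon over 3303 bases, at percentiles 7.21 and 4.63 of gene span among 11977 tested protein-coding genes, whose median is 32517 bases. PDK4 has 11 exons over 13018 bases, at percentile 24.5. The pentamer ATTTA, the core of AU-rich decay elements, occurs 0 times in the 964 bases of the PNRC1 3′ untranslated region, 6 times in the 2142 bases of PDK4 and 5 times in the 1474 bases of OTUD1, against a median of 2. Per kilobase this is 0, 2.80 and 3.39, against a median of 1.76.

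**Figure D4:**
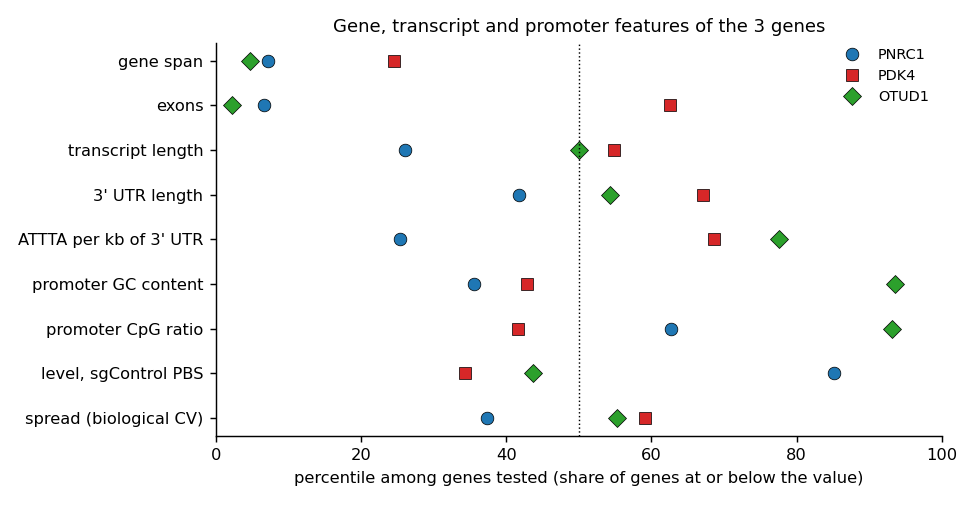
Each row is a feature and each point the percentile of 1 gene among the genes tested (protein-coding genes for the gene and transcript rows, genes with a RefSeq promoter for the promoter rows, all genes for the level and spread). All 3 genes lie below the median (dotted line) for gene span, and OTUD1 alone lies above percentile 90, for promoter GC content and CpG ratio.

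No exon of the 3 genes overlaps an exon of another annotated gene. The gene body of ENSG00000287124, a long noncoding RNA on the same strand, overlaps that of OTUD1, and it was not analysed here. PDK4-AS1 runs through PDK4 on the opposite strand and had at most 7 counts in a library against the 46 to 140 counts of PDK4, and the use of strand in counting is not given in the sources used here. Some annotated neighbours had no row in the count table under their annotated names. Among them was PNRC1-DT, a long noncoding RNA 84 bases from PNRC1 on the opposite strand. Of the neighbours listed within 100 kb of the 3 genes, only PM20D2, 60895 bases from PNRC1 and on the same strand, had enough counts to be tested. Its log2 fold change after SCF was -0.02 (SE 0.180, edgeR adjusted p 0.988) in sgControl cells and 0.003 (adjusted p 0.997) in sgEGR1 cells.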

How the data were processed

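The authors aligned paired-end reads of 12 libraries with HISAT (hg38) and quantified genes with StringTie. The deposited values are its estimated counts, unscaled for depth or length; 0 of them were not whole, so rounding changed none. The annotation release used was not given in the sources used here. Each library had 1 column, and 0 columns belonged to other samples. The guide code in the column names was read as sgEGR1 because the labels hold no other construct besides the scramble.

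Genes were filtered with filterByExpr and scaled by TMM, and 15492 of 54628 were tested with the edgeR 4.0.16 quasi-likelihood F test in R 4.3.3, with 1 coefficient per group over all 12 libraries and Benjamini-Hochberg adjustment over all genes tested. DESeq2 1.42.0 served as an alternative, and the code was tested on simulated data. The depth behind each value is given as counts, and counting errors cover counting only. The half-life is 60 min divided by the size of the log2 fold change.

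The members and all lists were chosen with earlier results of these data known. Named genes were the 3 members, EGR1, the 3 closest profiles per member by Pearson's r of log2 CPM (prior count 2, mean of at least 2 CPM), the next genes in each SCF ranking, up to 6 called genes per list (where fewer than 2 were called, the 2 with the largest absolute log2 fold change) and the closest family members. FOS, ITGA2B, VCPIP1, LOC105375001 and PM20D2 fell outside that rule and were chosen after their values were seen. Immediate early genes are given by counts only.

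Pairing by replicate number was checked from residuals: between the PBS groups of both genotypes r was 0.232, 0.103 and 0.119 for replicates 1 to 3, and between the SCF groups it was 0.269, 0.102 and 0.126, all over 0.1, whereas within a genotype between PBS and SCF it ranged from 0.00766 to 0.272. All replicate pairs differed by more than sampling noise. Alternatives were DESeq2 and its size factors, no filter, a replicate 1 term, a replicate block, replicates 2 and 3 only and leaving out each library. Promoters came from RefSeq tables and gene models from GENCODE release 44.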

Additional observations from a re-analysis of the deposited data

How the results depend on the processing

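The genotype differences and the interaction of PNRC1, PDK4 and OTUD1 were called under 0 of 19 alternatives, with adjusted p from 0.403 to 1, and the call of PNRC1 for replicate 1 held under all 15 that apply (adjusted p 0.00210 to 0.0395). The fall after SCF kept its sign in all 19, which follows from the choice of the genes by this fall. It ranged from -1.47 to -1.29 for PNRC1, -1.56 to -1.01 for PDK4 and -1.47 to -1.04 for OTUD1 over both genotypes. The -1.01 for PDK4 in sgControl cells came from replicates 2 and 3 only.

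Differences near 0 changed sign without any call. Leaving out 1 library, PNRC1 ranged from -0.0867 to 0.0265 after PBS, from -0.0554 to 0.0921 after SCF and from -0.0447 to 0.112 for the interaction, and PDK4 ranged from -0.0892 to 0.135 after SCF and from -0.141 to 0.107 for replicate 1. PDK4 after SCF was -0.037 from replicates 2 and 3 only, and -0.0547 with the replicate 1 term when sgEGR1 SCF replicate 3 was left out, an alternative chosen after seeing the data.

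Counts of calls over all genes moved more. For sgEGR1 against sgControl after PBS they were 0 in the reported fit, 4 with a replicate 1 term, 2 with the replicate block, 3 from replicates 2 and 3 only, 20 by DESeq2, 1 without the filter, 0 to 1 leaving out 1 library and 51 in the added fit. After SCF they were 0, 2, 2, 2 and 5 in the same order up to DESeq2, 0 to 2 leaving out 1 library and 38 in the added fit. For the interaction they were 2 from replicates 2 and 3 only, 4 by DESeq2, 0 to 2 leaving out 1 library and 2 in the added fit. For SCF in sgControl cells 448 became 1289 with the replicate 1 term, 1184 with the replicate block, 759 by DESeq2, 194 to 448 leaving out 1 library and 1186 in the added fit. In sgEGR1 cells 402 became 1326, 1235, 770, 176 to 428 and 778, and 690 from replicates 2 and 3 only. The replicate block changed no call of PNRC1, PDK4 or OTUD1. The causes were not tested.

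Same-numbered libraries gave half-lives of 38.2 to 45.9 min for PNRC1, 34.3 to 62.2 min for PDK4 and 44.6 to 62.4 min for OTUD1 in sgControl cells, and of 42.8 to 44.7, 36.6 to 43.4 and 40.5 to 54.7 min in sgEGR1 cells. Depth limits PDK4 most, at 46 to 140 counts per library.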
